A study of Mus musculus with 6 samples.

Results

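A set of 10 adipocyte-associated genes, among them Cfd, was followed across 6 prostate RNA sequencing libraries from mice with experimental autoimmune prostatitis, in which the gland is inflamed by autoimmunity to its own antigens. They were Cfd, Adipoq, Lep, Retn, Plin1, Plin4, Cidec, Lipe, Fabp4 and Pparg, 10 of the 18697 genes in the count table, and were picked by symbol. Cfd was picked because it was higher with VUF11207 in these same libraries, and the others to see whether they ran with it, so the VUF11207 against DMSO values of all 10 are given as a description with no test of their own. The VUF11207 group (3 libraries) came from diseased mice given VUF11207, a synthetic agonist of CXCR7 (also named ACKR3, an atypical chemokine receptor), intraperitoneally at 5 mg per kg per day for 14 days. The DMSO group (3 libraries) came from diseased mice given the vehicle alone on the same schedule. Mice of both groups carried the prostatitis, and no healthy mice enter the comparison. The sources used here do not give strain, age or the animal behind each library, so the spread between libraries may in part be technical. DMSO replicates 2 and 3 were matched to their columns by their own files. The number in the header of the remaining vehicle column is tied to no replicate by any sample's file or title. That column is called the DMSO unnumbered library.

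White adipocytes store triglyceride in a large lipid droplet and secrete hormones. Cfd encodes complement factor D, also called adipsin, a serine protease that cleaves factor B and so drives the alternative complement pathway, and in mice fat is a major source of it. Adipocyte identity is set by the nuclear receptor PPAR-gamma, whose targets include the droplet-coating perilipins, the fatty acid carrier FABP4 and adiponectin. Several of these genes are not restricted to fat: Fabp4 is also transcribed in capillary endothelium, Pparg in macrophages and urothelium, Plin4 in skeletal muscle and Lipe in steroid-producing and other cells.

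Library totals ran from 23915765 to 29311438 counts with VUF11207 and from 20308018 to 33368058 with DMSO. Levels are given as CPM, counts scaled to a library of 1e6 counts after TMM adjustment of its size. Prostate markers were present in every library, from 3710 to 143200 CPM for Sbp and from 623 to 17690 CPM for Pbsn. Seminal vesicle genes took 3.11% to 28.1% of the counts with VUF11207 and 0.700% to 64.9% with DMSO, the highest share being in DMSO replicate 2. That library had the highest total but a TMM factor of 0.425, so scarce genes were measured least finely there. In it 3 counts stood for 0.211 CPM, against 0.0970 to 0.111 CPM in the other libraries. Over the 13753 genes that passed the count filter, edgeR's quasi-likelihood test called 0 genes at a Benjamini-Hochberg adjusted p under 0.05, with 196 at an unadjusted p under 0.05. DESeq2 called 4 genes and limma voom 0.

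Of the 10 members, 7 passed the count filter and 3 (Plin1, Lep and Retn) did not. The background share of genes called was 0% in each direction, and 0 of the 7 tested members were called by edgeR, 1 (Cfd) having an unadjusted p under 0.05, as did 1.43% of all genes tested; nothing is read from this, since Cfd was chosen on that contrast. DESeq2 called 0 of the 10. The groups did not overlap for Cfd and Adipoq, which were higher with VUF11207, nor for Lipe, which was lower. Among all genes tested, 3.05% were higher and 2.52% lower without overlap. Beside the higher Cfd, the other members were split in direction. Of the 6 tested members besides Cfd, 3 had a positive log2 fold change and their median was -0.082, against -0.041 for all genes tested. The 95% intervals of these 6 all included 0 and were wide, so smaller shifts were not detectable with 3 libraries a group. Those of Adipoq, Plin4, Fabp4 and Cidec also included 1.34, the log2 fold change of Cfd, while those of Pparg and Lipe did not. For those first genes a shift as large as that of Cfd could not be told from none.

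**Figure D1:**
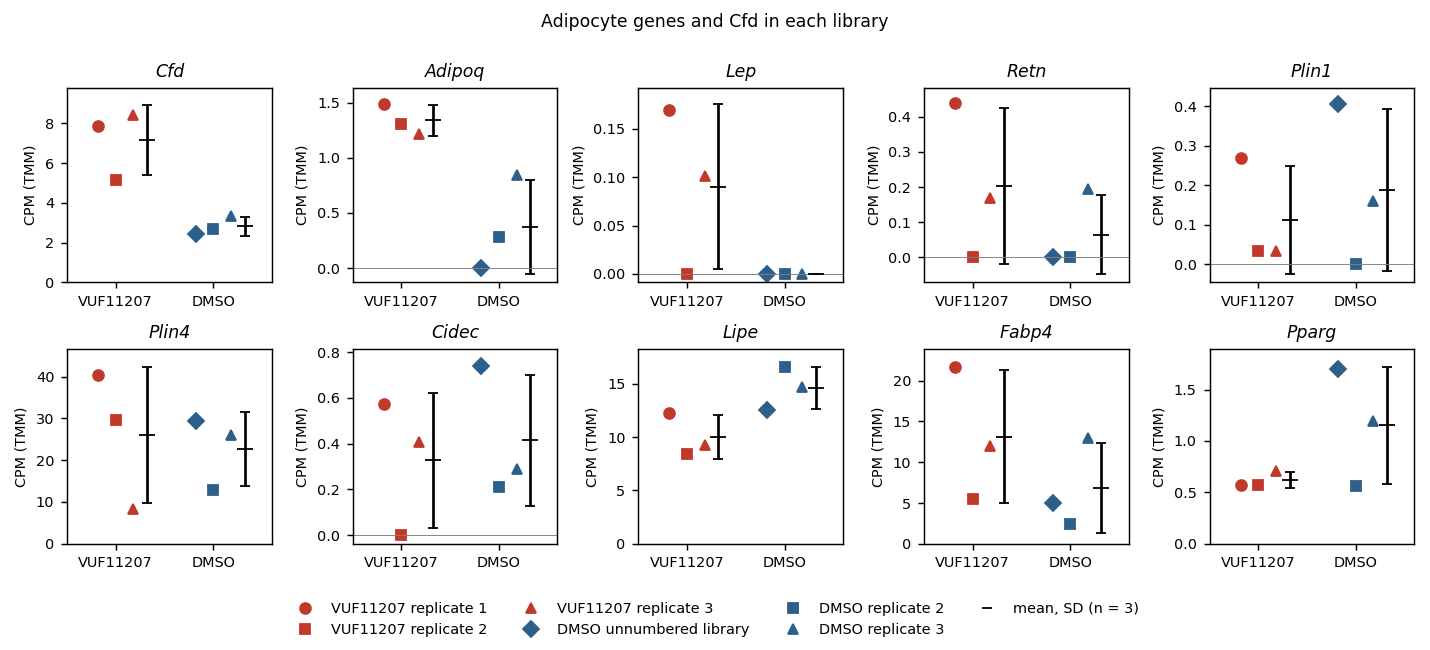
TMM-scaled CPM of each member in each library, with VUF11207 libraries in red and DMSO libraries in blue, and the group mean with its SD (n = 3) in black. Cfd and Adipoq are higher in every VUF11207 library than in any DMSO library, Lipe is lower, and the other panels overlap or rest on few counts.

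Cfd and Adipoq were the pair without overlap on the higher side, and their promoters are shown to place them. RefSeq promoter windows (build GRCm38.p6, which is mm10, 250 bases before the start to 50 after it) were found for 9 of the 10 members. The Cfd window is chr10:79890603-79890902 and the Adipoq window chr16:23146286-23146585, both on the plus strand. Capitals mark matches to CCAAT on either strand.
Cfd promoter: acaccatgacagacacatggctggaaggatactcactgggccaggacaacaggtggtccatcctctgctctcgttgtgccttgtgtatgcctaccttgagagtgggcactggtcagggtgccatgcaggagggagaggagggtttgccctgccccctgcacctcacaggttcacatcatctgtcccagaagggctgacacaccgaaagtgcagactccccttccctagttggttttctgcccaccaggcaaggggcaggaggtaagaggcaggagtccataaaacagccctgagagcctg
Adipoq promoter: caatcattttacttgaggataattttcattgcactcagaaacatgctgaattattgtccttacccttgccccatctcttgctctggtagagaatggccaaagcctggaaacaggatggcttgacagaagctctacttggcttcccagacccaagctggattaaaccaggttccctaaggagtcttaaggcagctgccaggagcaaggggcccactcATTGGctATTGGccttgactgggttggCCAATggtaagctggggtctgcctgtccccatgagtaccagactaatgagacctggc
Both strands were searched for the TATA box letters TATAAA, for the CCAAT box, for the nuclear receptor half-site AGGTCA and for the C/EBP-like letters TTGCNNAA, and no match overlapped one of another motif. The Adipoq window held CCAAT 3 times, with first bases at -34, -27 and -7 from the start, and the first and second of these were on the minus strand. The Cfd window held none of the 4 motifs. Of 32817 mouse promoter windows of this length, 37.4% held CCAAT, 13.6% TATAAA, 16.3% AGGTCA and 10.8% TTGCNNAA. The windows of Cfd and Adipoq thus shared none of the letters searched.

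Among the secreted factors, Cfd (ENSMUSG00000061780.6, chromosome 10, 79890853 to 79892655, plus strand) had 7.88, 5.13 and 8.42 CPM in VUF11207 replicates 1, 2 and 3, against 2.44, 2.68 and 3.33 CPM in the DMSO unnumbered library and DMSO replicates 2 and 3. The lowest VUF11207 library lay above the highest DMSO library. Cfd averaged 7.14 ± 1.76 CPM with VUF11207 and 2.82 ± 0.459 CPM with DMSO (SD, n = 3 each); the log2 fold change was 1.34 ± 0.35 (SE). These CPM values rested on 233, 153 and 249 reads with VUF11207 and 66, 38 and 103 reads with DMSO. With each library left out in turn the fold change of Cfd ran between 1.21 and 1.53 on the log2 scale.

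Adipoq (ENSMUSG00000022878.5, chromosome 16, 23146536 to 23158028), which encodes adiponectin and is largely restricted to fat, was scarce. It had 1.49, 1.31 and 1.22 CPM in VUF11207 replicates 1, 2 and 3, against 0, 0.282 and 0.840 CPM in the DMSO unnumbered library and DMSO replicates 2 and 3. The VUF11207 libraries were nearly level while the DMSO libraries were spread widely below them. Behind these were 44, 39 and 36 reads with VUF11207 and 0, 4 and 26 reads with DMSO. A count of 0 in the DMSO unnumbered library allows up to 0.111 CPM, taking 3 counts as the limit, and this covers counting error only. Adipoq averaged 1.34 ± 0.137 CPM with VUF11207 and 0.374 ± 0.428 CPM with DMSO (SD, n = 3 each); the log2 fold change was 1.80 ± 1.16 (SE), with a 95% interval from -0.97 to 4.56. The value was 1.21 without the DMSO unnumbered library and 3.40 without DMSO replicate 3.

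Lep, the satiety hormone leptin, was found in 2 libraries, VUF11207 replicate 1 with 5 reads and VUF11207 replicate 3 with 3, against 0 reads in all 3 DMSO libraries. VUF11207 replicate 2 had 0 reads as well. At 3 counts or fewer in most libraries no fold is given. Retn, which encodes the mouse adipocyte hormone resistin, had 13, 0 and 5 reads in VUF11207 replicates 1, 2 and 3, against 0, 0 and 6 reads in the DMSO unnumbered library and DMSO replicates 2 and 3. The libraries with Retn reads were VUF11207 replicates 1 and 3 and DMSO replicate 3, so its groups overlapped. The edgeR fit without the count filter put Retn at 1.46 ± 1.80 (log2 fold change, SE).

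The lipid droplet genes Plin1, Cidec and Plin4 overlapped between the groups, unlike Cfd, though few reads or wide intervals leave their shifts uncertain. Plin1, the perilipin that coats the droplet of mature adipocytes and gates lipolysis, had 8, 1 and 1 reads in VUF11207 replicates 1, 2 and 3, against 11, 0 and 5 reads in the DMSO unnumbered library and DMSO replicates 2 and 3. Its highest level, 0.407 CPM, was in the DMSO unnumbered library, where Adipoq, Lep and Retn had no reads. Cidec, which promotes fusion of lipid droplets, had 0.575, 0 and 0.406 CPM in VUF11207 replicates 1, 2 and 3, against 0.740, 0.211 and 0.291 CPM in the DMSO unnumbered library and DMSO replicates 2 and 3. The groups overlapped throughout, with a log2 fold change of -0.36 ± 1.23 (SE). Its sign turned without VUF11207 replicate 2 (0.22) or without the DMSO unnumbered library (0.35).

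Plin4, a perilipin of small and nascent droplets that is abundant in fat and muscle, had 40.3, 29.7 and 8.25 CPM in VUF11207 replicates 1, 2 and 3, against 29.4, 12.8 and 26.0 CPM in the DMSO unnumbered library and DMSO replicates 2 and 3. VUF11207 replicates spanned the whole DMSO range, and the lowest library of all was VUF11207 replicate 3, the one highest in Cfd. At 0.20 ± 0.58 (log2 fold change, SE) Plin4 had no stable sign: leaving out VUF11207 replicate 1 gave -0.23, and leaving out DMSO replicate 2 gave -0.077. Plin4 overlaps Hdgfl2 on the opposite strand in the GENCODE annotation, and no source used here gives the strand setting of the counting, so reads of the pair may not be told apart.

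Lipe, which encodes hormone-sensitive lipase, moved opposite to Cfd. It had 12.3, 8.46 and 9.23 CPM in VUF11207 replicates 1, 2 and 3, against 12.5, 16.6 and 14.7 CPM in the DMSO unnumbered library and DMSO replicates 2 and 3. The gap between the groups was narrow, and it closed when libraries were scaled by totals alone or by TMM without seminal vesicle genes and the 50 most abundant genes. Lipe averaged 9.998 ± 2.04 CPM with VUF11207 and 14.6 ± 2.01 CPM with DMSO (SD, n = 3 each); the log2 fold change was -0.55 ± 0.24 (SE), and of -0.32 with library totals alone. An antisense gene, 4732471J01Rik, overlaps Lipe, with the same uncertainty of strand as for Plin4.

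Fabp4, the fatty acid carrier of adipocytes and capillaries, had 21.7, 5.54 and 12.0 CPM in VUF11207 replicates 1, 2 and 3, against 4.996, 2.47 and 13.0 CPM in the DMSO unnumbered library and DMSO replicates 2 and 3. DMSO replicate 3 lay above VUF11207 replicates 2 and 3, so the groups overlapped, with a log2 fold change of 0.93 ± 0.71 (SE). It ran from 0.38 without VUF11207 replicate 1 to 1.81 without DMSO replicate 3. Pparg had 0.575, 0.570 and 0.710 CPM in VUF11207 replicates 1, 2 and 3, against 1.70, 0.564 and 1.20 CPM in the DMSO unnumbered library and DMSO replicates 2 and 3. DMSO replicate 2 was as low as the VUF11207 libraries while the other DMSO libraries were higher, and the log2 fold change was -0.91 ± 0.61 (SE). It was -0.52 without the DMSO unnumbered library. The antisense gene Gm44079 overlaps Pparg.

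**Figure D2:**
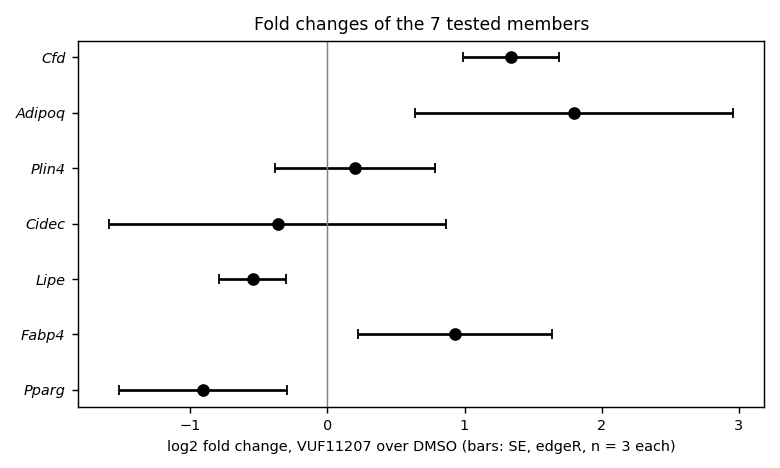
Log2 fold change (VUF11207 over DMSO) of the 7 members that passed the count filter, from edgeR, with bars of 1 SE (n = 3 libraries each). Cfd at 1.34 and Adipoq at 1.80 lie to the right, Lipe at -0.55 and Pparg at -0.91 to the left, and the bars of Plin4 and Cidec cross 0.

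Levels of different genes were compared per kilobase of exon. On the CPM per kilobase scale the level order in VUF11207 libraries was Cfd (7.75 ± 1.91), Plin4 (4.51 ± 2.83), Fabp4 (2.92 ± 1.82), Lipe (1.70 ± 0.346), Adipoq (0.969 ± 0.0995) and Pparg (0.209 ± 0.0269) (SD, n = 3). In DMSO libraries it was Plin4 (3.93 ± 1.52), Cfd (3.05 ± 0.498), Lipe (2.48 ± 0.341), Fabp4 (1.52 ± 1.23), Pparg (0.391 ± 0.193) and Adipoq (0.271 ± 0.310). Cfd and Plin4 overlapped in both groups, as did Plin4 and Fabp4, and Fabp4 and Lipe. With DMSO, Cfd and Lipe, Fabp4 and Pparg, and Pparg and Adipoq overlapped as well, whereas Lipe and Adipoq did not overlap in either. In both groups Cidec, Retn, Plin1 and Lep stayed at or under 0.399 CPM per kilobase in every library. Cfd thus exceeded Adipoq, Lep, Retn, Plin1 and Cidec per length in every library of either group.

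Cfd was next set against the other members within each library. The ratio of Cfd reads to Adipoq reads was 5.30, 3.92 and 6.92 in VUF11207 replicates 1, 2 and 3, against at least 22 in the DMSO unnumbered library (taking 3 counts as the limit for Adipoq) and 9.50 and 3.96 in DMSO replicates 2 and 3. The DMSO unnumbered library therefore held 66 Cfd reads with no Adipoq, Lep or Retn read. Cfd reads per Fabp4 read were 0.362, 0.927 and 0.699 with VUF11207, against 0.489, 1.09 and 0.256 with DMSO, and the groups overlapped. Cfd reads per Lipe read were 0.640, 0.607 and 0.912 with VUF11207, against 0.195, 0.162 and 0.226 with DMSO, without overlap.

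An adipocyte level was taken per library as the mean log2 CPM (prior count 2) of the 6 tested members other than Cfd. It was 2.14, 1.09 and 1.47 in VUF11207 replicates 1, 2 and 3, against 1.28, 0.86 and 1.84 in the DMSO unnumbered library and DMSO replicates 2 and 3. The groups overlapped, with means of 1.57 ± 0.53 with VUF11207 and 1.33 ± 0.50 with DMSO (SD, n = 3 each), a difference of 0.24. Without VUF11207 replicate 1 this difference was -0.018, and without the 2 libraries highest in seminal vesicle counts (DMSO replicate 2 and VUF11207 replicate 1) it was -0.26. Cfd minus the adipocyte level was 0.86, 1.29 and 1.61 in VUF11207 replicates 1, 2 and 3, against 0.054, 0.60 and -0.078 in the DMSO unnumbered library and DMSO replicates 2 and 3. The groups did not overlap, and the difference of their means was 1.06. This averages unlike members. For Cfd minus Adipoq the difference was -0.98, the only negative value, and for Cfd minus Fabp4 it was 0.25. Against Plin4 it was 1.29, against Lipe 1.85, against Cidec 1.92 and against Pparg 2.01. The value for Adipoq rests in part on the DMSO unnumbered library, where Adipoq had no read. With the adipocyte level as a covariate in the edgeR fit, the log2 fold change of Cfd was 1.24 ± 0.37 (SE), and with Adipoq as the covariate it was 1.08 ± 0.53. Cfd was chosen on this contrast, so a positive value in these fits was largely set beforehand. The groups of Adipoq do not overlap either, so the fit with Adipoq cannot part it from the treatment. When the level was taken from Adipoq, Plin1, Cidec, Lep and Retn alone, Cfd minus the level differed by 0.67 between the groups. This is less than 1.06, because that level was higher with VUF11207 by more than the 0.24 of the 6 tested members. It rests on few reads: all 5 genes had 0 reads in at least 1 library, and Plin1, Lep and Retn did not pass the count filter.

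Across the 6 libraries, log2 CPM of Cfd and Adipoq had a Pearson r of 0.799 (exact permutation p over 720 pairings 0.0292, two-sided) and a Spearman rho of 0.829 (exact permutation p 0.0583). After Benjamini-Hochberg adjustment over the 13752 genes set against Cfd, these exact permutation p-values were 0.936 and 0.698. Without the 2 libraries farthest from the median of Adipoq, both of them DMSO, r was 0.814. The groups do not overlap in either gene, so this r and its p are not separate from the treatment contrast. Cfd was chosen on that contrast, so nothing is read from them. With 44, 39 and 36 reads with VUF11207 and 0, 4 and 26 with DMSO, Adipoq passed the count filter only through its VUF11207 libraries. The relation was not tested within groups, and no r is given over 3 libraries. The DMSO libraries were ordered alike in Cfd and Adipoq, whereas among VUF11207 libraries replicate 3 was highest in Cfd and lowest in Adipoq. Of all genes tested, 332 (2.41%) had an r with Cfd at least as high as Adipoq.

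The other tested members had lower r with Cfd over the 6 libraries. Pearson r with Cfd was 0.709 for Fabp4 (rho 0.657, exact permutation p 0.122 and 0.175), -0.112 for Plin4 (rho -0.0286, p 0.811 and 1) and -0.0339 for Cidec (rho -0.0857, p 0.971 and 0.919). For Pparg it was -0.562 (rho -0.200, exact permutation p 0.253 and 0.714) and for Lipe -0.644 (rho -0.657, p 0.201 and 0.175). The groups of Lipe do not overlap either, so its r, too, is not separate from the treatment contrast, and none of these relations was tested within groups. Over all genes set against Cfd, the adjusted exact permutation p was 0.936 or higher for each of these Pearson values. Without the 2 libraries farthest from the median of each gene, r was 0.431 for Fabp4 and -0.498 for Lipe, and it turned to 0.792 for Plin4, 0.909 for Cidec and 0.600 for Pparg, so the direction of these 3 relations rests on the pair of libraries left out. With 1 library left out, r of Pparg stayed negative, between -0.875 and -0.265. With Adipoq, r was 0.592 for Fabp4, -0.417 for Cidec and -0.698 for Pparg, and these are given as a description over 6 libraries.

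**Figure D3:**
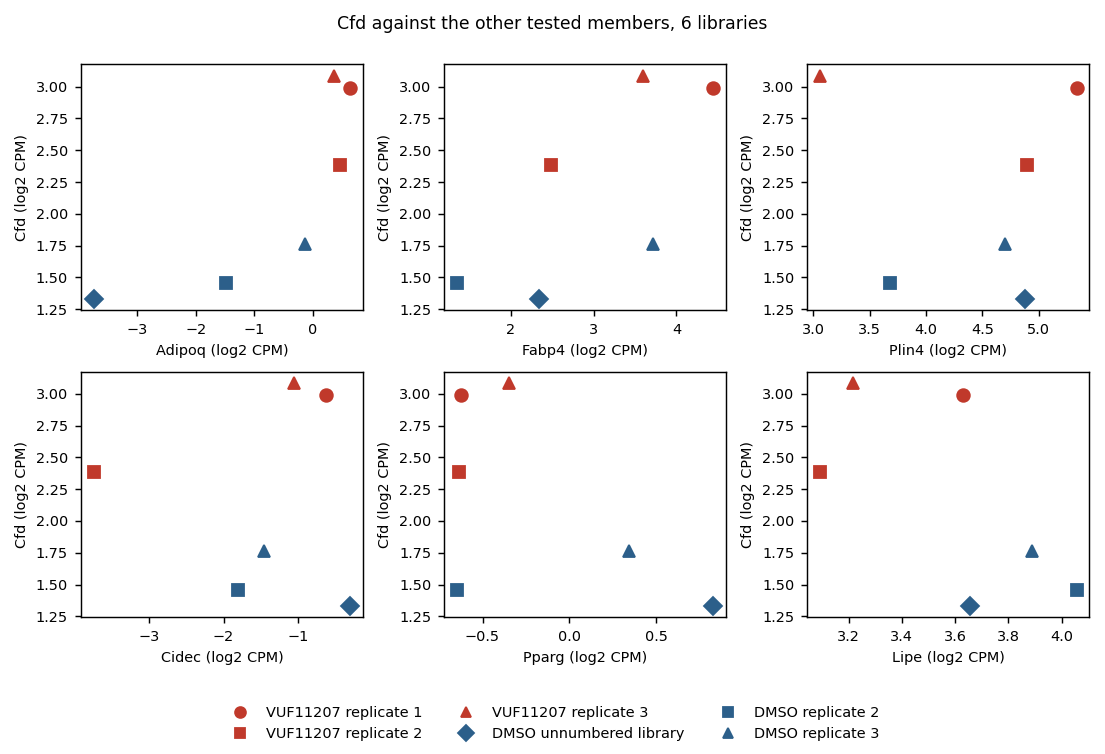
Log2 CPM of Cfd (vertical) against log2 CPM of each other tested member (horizontal) in the 6 libraries, VUF11207 in red and DMSO in blue. Only the Adipoq and Fabp4 panels slope upward (r of 0.799 and 0.709), while the Lipe and Pparg panels slope downward (r of -0.644 and -0.562) and r is -0.112 for Plin4 and -0.0339 for Cidec.

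The genes with the pattern most like Cfd, by Pearson r of log2 CPM over the 6 libraries among 11558 eligible genes, were Taf11 (0.987), Bub3 (0.977), Hmox2 (0.975), Ptpn4 (0.970), Dcaf12l1 (0.965), Rnf26 (0.961), Nsmce3 (0.959), Manbal (0.955), Cdkn1a (0.951) and Mxra8 (0.949). None was on the adipocyte or complement lists. Each of these 10 was higher in every VUF11207 library than in any DMSO library. Their r is therefore not separate from the treatment contrast that chose Cfd, and nothing is read from it. The shifts could be small, with log2 fold changes of 0.25 for Taf11 and 0.18 for Bub3. Cdkn1a, the cell cycle inhibitor p21, had 15.8, 13.3 and 25.2 CPM in VUF11207 replicates 1, 2 and 3, against 6.03, 6.76 and 10.9 CPM in the DMSO unnumbered library and DMSO replicates 2 and 3. The genes most like Adipoq were Mlkl (0.995), Acvr1 (0.989), Tmprss4 (0.988), Phf11d (0.986), Mageh1 (0.985), Naip1 (0.983), Osbpl3 (0.981), Kctd13 (0.980), Nbn (0.979) and Lrg1 (0.976). The lists of 10 shared 0 genes, and the smallest adjusted exact permutation p of any gene with Cfd was 0.936.

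Other genes of adipocyte biology were then counted in 6 lists, and those of complement in 2 more, 112 tested genes in all. None of the 112 passed the adjusted threshold in edgeR, 2 had an unadjusted p under 0.05, and 38 (33.9%) had a positive fold change, against 44.7% of all genes tested. Their groups did not overlap for 3 genes on the higher side and 1 on the lower side, together 3.57%, against a background of 5.57% in either direction. The median log2 fold change was -0.13. The medians of single lists are small beside what 1 library moves: with each library left out in turn, the medians of 7 of the 8 lists took both signs, the alternative complement pathway being the exception.

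Among adipokines and other secreted factors of fat, 4 of 10 tested genes were positive, the median log2 fold change being -0.014. The smallest p were those of Tnmd (tenomodulin, 1.28 ± 1.06), Angptl4 (an inhibitor of lipoprotein lipase, 0.61 ± 0.55) and Nampt (-0.24 ± 0.28) (log2 fold change, SE). Of the lipid droplet and lipolysis genes, 6 of 14 were positive, with a median of -0.055. Hilpda, an inhibitor of adipose triglyceride lipase, was at 0.48 ± 0.29, Plin2 at 0.51 ± 0.32 and the monoglyceride lipase Mgll at 0.47 ± 0.32 (log2 fold change, SE). None of the 14 separated the groups.

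Of triglyceride synthesis and lipid uptake genes, 11 of 22 were positive, with a median of 0.010. Scd1, the fatty acid desaturase, had 212, 190 and 339 CPM in VUF11207 replicates 1, 2 and 3, against 139, 84.6 and 150 CPM in the DMSO unnumbered library and DMSO replicates 2 and 3. The groups of Scd1 did not overlap (0.99 ± 0.34, log2 fold change, SE), and it did not pass the adjusted threshold. Dgat1, which makes triglyceride, was at -0.49 ± 0.25 and the elongase Elovl6 at -0.90 ± 0.60 (log2 fold change, SE). Adipogenic transcription factors and regulators had 9 of 19 positive and a median of -0.083. The nuclear receptor corepressor Nrip1 was at 0.57 ± 0.23, Trarg1 at -1.28 ± 0.85 and Lmo3 at -2.25 ± 1.56 (log2 fold change, SE), and none passed the threshold. Without the DMSO unnumbered library Trarg1 was at -0.00039, and without DMSO replicate 2 Lmo3 was at -0.38.

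Brown and beige fat genes had 2 of 7 positive and a median of -0.16. Ucp1, the uncoupling protein that defines brown fat, had a read in VUF11207 replicate 2 only. Dio2 was at -1.09 ± 0.69, Kcnk3 at 0.50 ± 0.71 and Letmd1 at -0.17 ± 0.40 (log2 fold change, SE). Per library this list (mean log2 CPM of its genes minus their 6-library mean) stood at 1.38, -0.87 and -0.0071 in VUF11207 replicates 1, 2 and 3, against -0.78, -1.44 and 1.72 in the DMSO unnumbered library and DMSO replicates 2 and 3. It was highest in VUF11207 replicate 1 and DMSO replicate 3, the libraries with most skeletal muscle transcripts. Adipocyte progenitor genes had 3 of 13 positive and a median of -0.23, with Clec11a at 0.64 ± 0.34, Dpp4 at -0.83 ± 0.49 and F3 at -0.63 ± 0.54 (log2 fold change, SE). Without the DMSO unnumbered library the progenitor median was 0.23, and without DMSO replicate 2 Dpp4 was at -0.082.

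The other genes of the alternative complement pathway ran against Cfd in sign: 0 of 11 tested were positive, the median log2 fold change being -0.50, though none passed the threshold. This median rested largely on the DMSO unnumbered library, without which it was -0.0074, and it was -1.09 without VUF11207 replicate 2, -0.19 without VUF11207 replicate 1 and -0.21 without VUF11207 replicate 3. C3, the central component that the pathway cleaves, averaged 24.7 ± 20.1 CPM with VUF11207 and 46.2 ± 22.3 CPM with DMSO (SD, n = 3 each); the log2 fold change was -0.90 ± 0.65 (SE). The complement regulators Cd55 and Cd46 were at -0.79 ± 0.63 and -0.75 ± 0.65, and Cfb, the substrate of factor D, at -0.067 ± 0.69 (log2 fold change, SE). Cfb was chosen after its values were seen. Per library this list stood at -0.48, 0.59 and -0.78 in VUF11207 replicates 1, 2 and 3, against 0.89, -0.37 and 0.15 in the DMSO unnumbered library and DMSO replicates 2 and 3. Other complement components had 3 of 16 positive and a median of -0.27, with C1qa at -0.47 ± 0.34, C1qc at -0.50 ± 0.37 and C7 at 0.49 ± 0.49 (log2 fold change, SE). The median of these components was 0.23 without the DMSO unnumbered library and -0.86 without VUF11207 replicate 2.

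Markers of other cell types were read beside these values, and their part in the members' levels was not tested. In bulk tissue, fewer cells of a type and less RNA per cell cannot be told apart. Skeletal muscle markers, which can come with Plin4, had a level of 4.22, -2.49 and 0.45 in VUF11207 replicates 1, 2 and 3, against -4.15, -2.13 and 4.11 in the DMSO unnumbered library and DMSO replicates 2 and 3. Their summed level ran from 629 to 6048 CPM with VUF11207 and from 420 to 5722 CPM with DMSO, and Myh2 was at 0 in the DMSO unnumbered library. The defining marker Acta1 averaged 1025 ± 674 CPM with VUF11207 and 781 ± 420 CPM with DMSO, and Myh4 242 ± 384 CPM with VUF11207 and 223 ± 383 CPM with DMSO (SD, n = 3 each). Fabp4, Retn and the brown fat list were highest or second highest in the libraries rich in muscle, VUF11207 replicate 1 and DMSO replicate 3. Without those 2 libraries the log2 fold change of Cfd was 1.44, that of Adipoq 3.33 and that of Fabp4 1.28. Plin4 did not keep the order of the muscle markers. It was highest in VUF11207 replicate 1 (40.3 CPM). In VUF11207 replicate 2 (29.7 CPM) and the DMSO unnumbered library (29.4 CPM), both low in muscle markers, Plin4 lay above DMSO replicate 3 (26.0 CPM).

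Capillary endothelial markers, which bear on Fabp4, had 1 of 13 positive, the median log2 fold change being -0.44, and summed to a level of 42.7 to 72.3 CPM in VUF11207 libraries and 58.1 to 102 CPM in DMSO libraries. Pecam1 averaged 7.68 ± 3.29 CPM with VUF11207 and 11.3 ± 2.02 CPM with DMSO, and Cdh5 5.27 ± 3.25 CPM with VUF11207 and 7.69 ± 4.83 CPM with DMSO (SD, n = 3 each). The endothelial median was -0.11 without the DMSO unnumbered library. Macrophage markers, which bear on Pparg and complement, had 0 of 12 positive and a median of -0.53, which was -0.15 without the DMSO unnumbered library and -1.08 without VUF11207 replicate 2. They had a summed level of 125 to 284 CPM with VUF11207 and 148 to 431 CPM with DMSO. Cd68 averaged 4.74 ± 1.13 CPM with VUF11207 and 7.18 ± 3.79 CPM with DMSO, and Adgre1 5.12 ± 3.59 CPM with VUF11207 and 8.56 ± 5.40 CPM with DMSO (SD, n = 3 each). Their level was 0.92 in the DMSO unnumbered library, the library highest in Pparg, Plin1 and Cidec, and 0.48 in VUF11207 replicate 2, and the 6 libraries stood in the same order for the macrophage and the alternative complement lists. Of the 12 macrophage names, 3 are also on the list of other complement components.

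Fibroblast markers had 7 of 10 positive and a median of 0.18, and smooth muscle markers 8 of 8 and 0.41. With 1 library left out these medians ran from -0.059 to 0.41 for fibroblasts and from -0.33 to 1.15 for smooth muscle. Urothelial markers, which bear on Pparg, had 3 of 5 positive and a median of 0.089. Upk3a, Upk3b and Krt20 were at 0 in at least 1 library. Upk1a averaged 223 ± 167 CPM with VUF11207 and 119 ± 105 CPM with DMSO (SD, n = 3 each). The tested Upk genes were split in direction. Upk1a was at 0.91 ± 1.02, Upk1b at -0.49 ± 0.62 and Upk2 at -1.11 ± 1.33 (log2 fold change, SE). Sebaceous gland markers had 1 of 5 positive and a median of -0.43, with Awat1 at 0 in every library, and Schwann cell and nerve markers, whose tissue also transcribes Cfd in mice, 2 of 8 and -0.20. Seminal vesicle genes had 0 of 9 positive and red blood cell genes 0 of 5, with medians of -2.82 and -2.16. With 1 library left out the seminal vesicle median ran from -6.02 (without VUF11207 replicate 1) to 4.38 (without DMSO replicate 2), and the red blood cell median from -3.74 to -1.01. The medians of urothelium, sebaceous gland and nerve markers also took both signs. All of these marker lists overlapped between the groups in summed level.

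**Figure D4:**
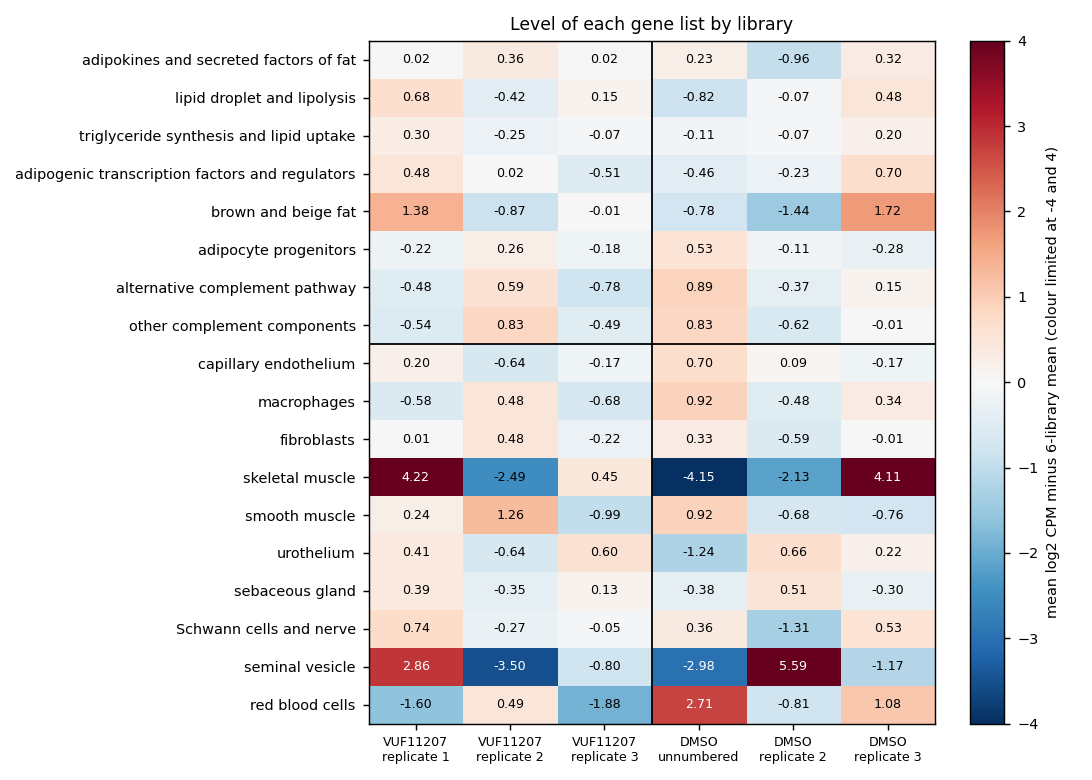
Level of each gene list in each library (mean log2 CPM of its tested genes minus their 6-library mean), with VUF11207 libraries on the left, DMSO libraries on the right, and pathway lists above the line and markers of other cell types below it. Colours are capped at -4 and 4. Skeletal muscle runs from -4.15 to 4.22 and seminal vesicle from -3.50 to 5.59 across libraries of both groups, and no fat-related list separates the groups.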

How the data were processed

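Read counts per gene symbol for 18697 genes and 6 libraries were deposited as whole numbers, not normalised; fastp, HISAT2 and HTSeq were run on the mm10 genome, per the submitters' processing notes, which give no versions. No source used here names the gene annotation or strand setting. All 5 library files with a sample of their own were identical to the table's columns. The sixth column was placed in the DMSO group by its name, and 0 columns were left unused. No row lacked a gene name.

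Counts were filtered with filterByExpr, scaled by TMM and tested with edgeR 4.0.16 (quasi-likelihood, robust, two-sided, Benjamini-Hochberg over all 13753 genes, threshold 0.05) in R 4.3.3. The SE is the fold change over the root of its F statistic. Log2 CPM used a prior count of 2. With 3 libraries against 3, exact permutation cannot go below 0.1, so no such group test was run. The test was tried on simulated counts, and nothing is read from that trial about how large a shift it can detect in these libraries. The members and gene lists were chosen with earlier results of these data known, and lists were matched by symbol alone. A few genes stand on more than 1 list. The text names the members, the 3 genes of each pathway list with the smallest p, and the 10 genes closest to Cfd and to Adipoq in r at an average log2 CPM of at least 1, leaving out members and unnamed gene models (Gm, Rik and LOC names), with the first markers of a list. DESeq2 1.42.0 and limma 3.58.1 were alternatives. Positions and exon lengths are from GENCODE M21 (mm10) and promoters from RefSeq (GRCm38.p6). The 2 libraries left out together for muscle or seminal vesicle content were chosen after seeing the data. Intervals and limits from counts cover counting error only.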

Additional observations from a re-analysis of the deposited data

How the results depend on the processing

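The count of 0 genes past the threshold became 3 with library totals alone and 4 with DESeq2, and stayed at 0 under the other alternatives, from 0 to 0 with 1 library left out. Library totals shifted the median gene by 0.18 on the log2 scale. The log2 fold change of Cfd stayed positive under every alternative run, the lowest being 1.08 with Adipoq as a covariate. It ran from 1.21 to 1.53 with 1 library left out. It was 1.15 with the replicate block over replicates 2 and 3 of each group (1.18 for the same 4 libraries without the block). Cfd was chosen for being higher in these same libraries, so its sign here is a description and no separate support. Deviations of same-numbered libraries, had for replicates 2 and 3 only, correlated at -0.332 and 0.0525. So few libraries cannot settle whether the numbers mark pairs, and they were not taken as pairs.

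The difference in the adipocyte level ran from -0.018 to 0.50 with 1 library left out, and was -0.26 without the 2 libraries highest in seminal vesicle counts. Cfd minus that level ran from 0.88 to 1.26 with 1 library left out, was 0.67 with the level of Adipoq, Plin1, Cidec, Lep and Retn, and 1.47 without the 2 seminal vesicle-rich libraries.

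Values whose sign turned included the following, and the cause was not tested. With library totals alone Nampt was at 0.10, and r with Cfd was 0.462 for Plin4, 0.207 for Cidec, 0.303 for Pparg and 0.334 for Lipe. With 1 library left out, Plin4 ran from -0.23 to 0.63, Cidec from -0.99 to 0.35, Nampt from -0.40 to 0.058 and Letmd1 from -0.44 to 0.32 (log2 fold change), and r with Cfd ran from -0.517 to 0.666 for Plin4 and from -0.273 to 0.301 for Cidec. Among these, the value was 0.22 for Cidec and 0.199 for its r without VUF11207 replicate 2. The r of Plin4 was 0.0299 without the DMSO unnumbered library. Nampt kept its sign without VUF11207 replicate 1, at -0.33. With 1 library left out, list medians turned to 0.23 for adipocyte progenitors, 0.23 for other complement components, -0.33 for smooth muscle and 4.38 for seminal vesicle, and the sebaceous gland median was 0.084 with library totals alone; the medians of alternative complement, endothelium, macrophages and red blood cells stayed negative with 1 library left out. Plin4 was at -0.11 without the 2 muscle-rich libraries and at -0.53 without the 2 seminal vesicle-rich ones, where Fabp4 was at -0.019. With at least 10 counts in each library Adipoq was not tested, so its r could not be had. Depth limits Lep, Retn, Plin1, Cidec, Pparg and Adipoq most, with at most 46 reads in a library.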
